A study of Mus musculus with 30 samples.

Results

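The genes described here are 31 that encode enzymes and regulators of mitochondrial and peroxisomal beta-oxidation and of ketone body metabolism. They were taken by name from a fixed list, and all 31 were found among the 18913 gene names shared by the kidney and the pancreas table. Levels are FPKM (fragments scaled to transcript length and to the mapped fragments of the library) as the authors deposited them. Each comparison was also made after scaling every library to its median gene, and the text calls those values scaled.

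All mice were of the C57BL/6 strain and drank 0.2 mg/ml doxycycline for 7 days, the controls included. In the kidney, 5 libraries came from i4F p53 KO mice, 5 from i4F Ink4a/Arf KO mice and 5 from i4F mice that kept both tumour suppressors. In the pancreas, 5 libraries carry the label p53 KO with no mention of i4F, 5 are from i4F Ink4a/Arf KO mice and 5 from i4F mice. The i4F cassette lets doxycycline induce the reprogramming factors Oct4, Sox2, Klf4 and Myc. Ages, the promoter behind the cassette and the kind of knockout allele are not given in the sources used here. The 2 comparisons of p53 KO in each tissue share their p53 KO libraries.

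In the kidney, Trp53, the gene of p53, ranged from 4.90 to 10.2 FPKM in i4F p53 KO and from 14.9 to 20.3 FPKM in i4F, without overlap. In the pancreas, Trp53 was not lower where the label says p53 KO, at 6.65 to 24.8 FPKM against 1.64 to 6.99 FPKM in i4F, and at 4.17 to 6.66 against 3.55 to 6.96 scaled FPKM. The group is therefore called by its label below, and every direction given for it rests on that label. Cdkn2a, the Ink4a/Arf gene, was at most 0.0782 FPKM in i4F kidney and at most 0.318 FPKM in i4F pancreas, too low to show its loss. The pancreas libraries stood apart. The factors that divide each library ranged from 1.31 to 3.93 in those labelled p53 KO, from 0.496 to 0.641 where Ink4a/Arf was deleted and from 0.463 to 1.00 in i4F, while all 15 kidney factors lay between 0.891 and 1.16. Acinar genes (9 of the 10 listed were matched) made up 0.881 to 24.0% of all FPKM in pancreata labelled p53 KO and 32.5 to 48.0% in i4F pancreata. Some acinar genes were listed at exactly 0 in single libraries: Ctrb1 in all 10 pancreata of both i4F groups and in replicates 3 and 4 of those labelled p53 KO, Cpa1 and Prss2 in i4F replicate 5, which is the library at 32.5%, and Cela1 in i4F replicate 1. In the other 4 i4F libraries Cpa1 measured 28540 to 37130 FPKM and Prss2 80510 to 98030 FPKM, so these sums understate the acinar share there. By Xist and Ddx3y all 5 kidneys of i4F p53 KO were male. The female kidneys were replicates 4 and 5 of i4F and replicate 1 of i4F Ink4a/Arf KO. In pancreas all 5 libraries labelled p53 KO were male, while i4F replicates 3, 4 and 5 and replicate 1 of the Ink4a/Arf KO group were female.

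Beta-oxidation shortens fatty acids by repeated rounds of dehydrogenation, hydration, dehydrogenation and thiolysis, in mitochondria for most fatty acids and in peroxisomes for very long and branched ones. Carnitine carries long-chain acyl groups into mitochondria, and electrons from the acyl-CoA dehydrogenases reach the respiratory chain through electron transfer flavoprotein. Ketone bodies are made mainly in liver and burnt in other tissues. The proximal tubule of the kidney is among the tissues that rely most on fatty acids, under control of the nuclear receptor PPAR alpha and its coactivator PGC-1 alpha.

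Promoter sequence from RefSeq (assembly GRCm38.p6, the assembly of the mm10 build of the files) was at hand for 26 of the 31 genes, as the 250 bases before the RefSeq start. Those of the genes the kidney results turn on, Acadm and Bdh1, and of gene pairs with related products are printed 5′ to 3′ on the gene's strand, trimmed to bases outside annotated exons. Capitals mark the letters GGGCGG (GC box), AGGTCA (the unit repeated in nuclear receptor sites) and CCAAT, each searched on both strands, so that TGACCT and ATTGG are the last 2 read on the other strand. No motifs overlapped in these stretches.
Acadm, chr3:153944644-153944893, minus strand: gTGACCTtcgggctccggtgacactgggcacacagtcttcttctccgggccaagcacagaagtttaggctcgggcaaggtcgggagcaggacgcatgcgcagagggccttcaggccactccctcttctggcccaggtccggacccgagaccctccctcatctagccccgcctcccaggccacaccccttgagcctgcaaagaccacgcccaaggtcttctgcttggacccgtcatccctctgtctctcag
Bdh1, chr16:31422047-31422279, plus strand: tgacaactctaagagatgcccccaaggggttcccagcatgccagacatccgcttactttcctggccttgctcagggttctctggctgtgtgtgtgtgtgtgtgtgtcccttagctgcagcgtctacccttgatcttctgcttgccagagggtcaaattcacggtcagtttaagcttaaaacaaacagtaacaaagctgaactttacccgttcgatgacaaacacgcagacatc
Hadhb, chr5:30155163-30155247, plus strand: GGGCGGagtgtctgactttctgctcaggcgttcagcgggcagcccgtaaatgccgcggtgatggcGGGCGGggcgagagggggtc
Acaa1a, chr9:119341160-119341293, plus strand: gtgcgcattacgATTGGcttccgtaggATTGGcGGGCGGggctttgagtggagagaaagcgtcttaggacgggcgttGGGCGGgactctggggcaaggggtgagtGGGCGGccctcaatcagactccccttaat
Acaa1b, chr9:119157094-119157343, minus strand: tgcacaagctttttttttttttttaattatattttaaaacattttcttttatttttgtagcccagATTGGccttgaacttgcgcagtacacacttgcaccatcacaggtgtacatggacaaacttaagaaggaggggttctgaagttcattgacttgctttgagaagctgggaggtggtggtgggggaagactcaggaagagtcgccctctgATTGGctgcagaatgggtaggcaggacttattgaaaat
The Hadhb stretch is the whole interval of 85 bases between the start of Hadha, on the minus strand, and that of Hadhb, so the genes of both subunits of the trifunctional protein face away from each other across it. Its GC content was 69.4%. Acaa1a and Acaa1b encode near-identical peroxisomal thiolases, and their GENCODE gene bodies lie 182582 bases apart. The RefSeq start of Acaa1a lies inside its GENCODE body (chr9:119339676-119350299), so the printed stretch is within that body, outside its exons; the Acaa1a stretch held 3 GC boxes at 61.2% GC, and the Acaa1b stretch held none at 41.6% GC. A GC box was present for 16 of the 26 genes, against 42.6% of 21263 windows of protein-coding genes of the same length. AGGTCA was found for 4 genes, Acadm, Acadvl, Cat and Cpt1a, against 12.8% of those windows, and CCAAT for 10 genes, against 35.4%. A direct repeat of AGGTCA with 1 base between the copies (DR1, the consensus PPAR element) was in none of these windows and in 0.0423% of the protein-coding ones.

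In i4F mice with both tumour suppressors the whole set was far more abundant in kidney than in pancreas. Both tissues were deposited as separate tables, so this is a description of levels with no test. For each of the 31 genes, all 5 kidney values lay above all 5 pancreas values. How many of all genes separate in this way, or reach a given ratio, was not computed. The median ratio of kidney to pancreas mean was 17.3 over the 31 genes, and 4.01 over the 8034 genes with a mean of at least 1 FPKM in both tissues. The 31 were not filtered in this way, and Bdh1, Ppara, Ppargc1a and Acaa1b had pancreas means under 1 FPKM. Acadm, the medium-chain acyl-CoA dehydrogenase, was the most abundant member in kidney at 491.5 ± 85.2 FPKM (SD, n = 5), and averaged 5.46 ± 1.58 FPKM in pancreas. Etfb, the beta subunit of electron transfer flavoprotein, followed in kidney at 389.5 ± 70.1 FPKM and led in pancreas at 29.2 ± 4.96 FPKM. Cat (catalase) averaged 361.6 ± 48.8 FPKM in kidney and 8.38 ± 2.99 FPKM in pancreas. Oxct1, which activates acetoacetate so that it can be burnt, averaged 357.6 ± 20.9 FPKM in kidney and 6.57 ± 1.82 FPKM in pancreas. The means of Etfb, Cat and Oxct1, neighbours in the kidney order, differed by less than the SD of Etfb.

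The ratio was 10 or more for 26 genes, Acaa1b among them, and lowest for Acaa1a, at 49.6 ± 8.30 FPKM in kidney and 11.4 ± 1.41 FPKM in pancreas. Its neighbour Acaa1b measured 74.5 to 135.5 FPKM in kidney. In the 5 i4F pancreas libraries it was listed at 0 in 3 and at 0.185 and 0.0742 FPKM in the others. Reads that map equally to the near-identical copies may be divided between Acaa1a and Acaa1b in FPKM, so their values are uncertain. The regulators were the least abundant members in kidney, with Ppara (PPAR alpha) at 15.3 ± 1.63 FPKM and Ppargc1a (PGC-1 alpha) at 10.5 ± 2.68 FPKM. In pancreas Ppara averaged 0.566 ± 0.156 FPKM and Ppargc1a 0.196 ± 0.0713 FPKM.

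**Figure D1:**
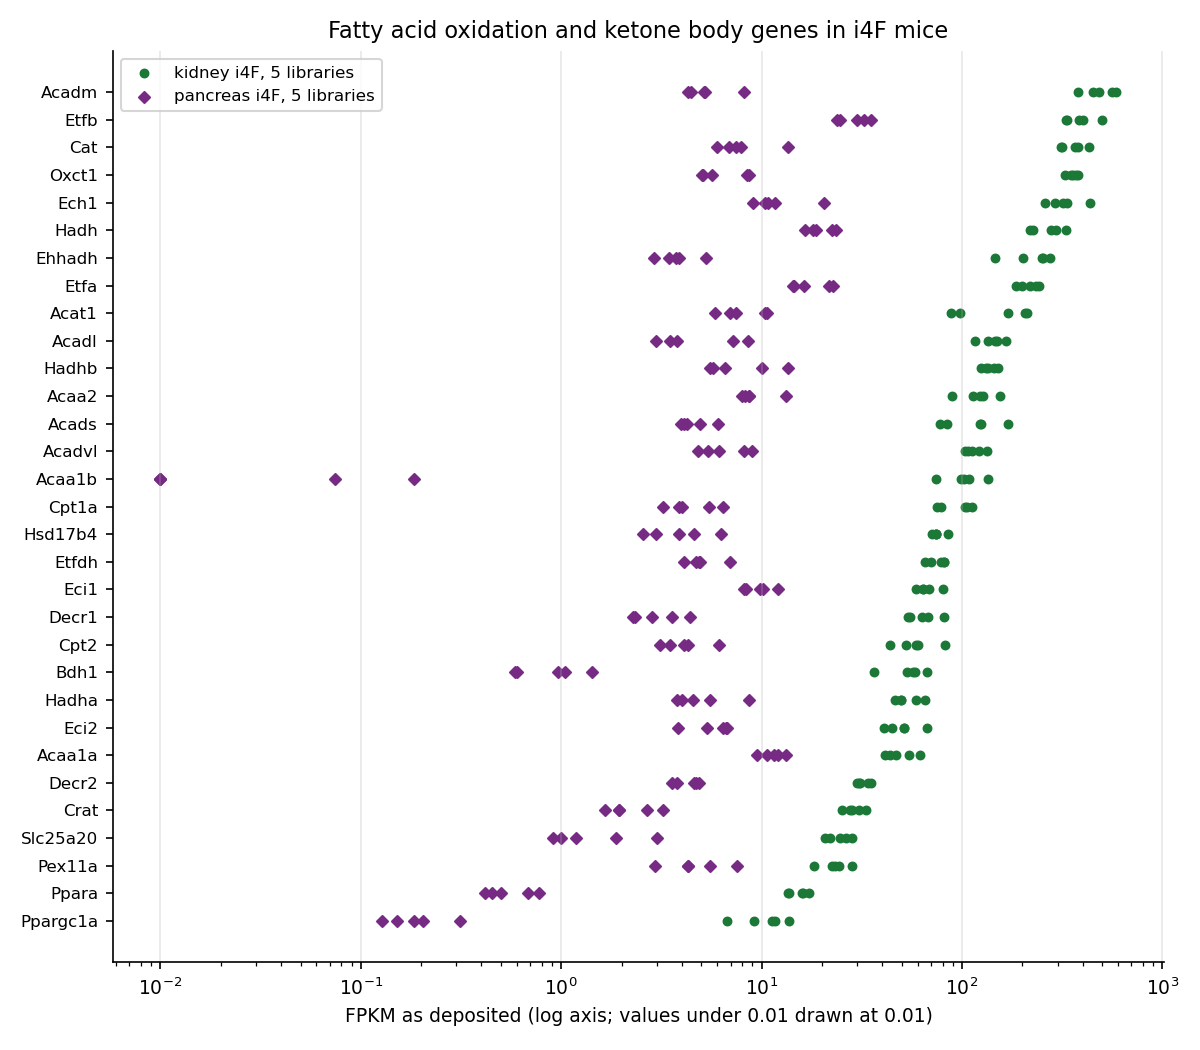
Levels of the 31 genes in the 5 kidney and the 5 pancreas libraries of i4F mice, in FPKM as deposited on a log axis, one point per library and genes ordered by kidney mean. Kidney points lie to the right of pancreas points in every row, with Acadm at the top of the kidney order and Ppargc1a at the bottom; Acaa1b values listed at 0 in pancreas are drawn at the left edge.

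The next question was whether these genes differed in kidneys without p53. In i4F p53 KO kidneys Bdh1 and Acadm were lower than in i4F kidneys, and the other 29 genes did not pass the test. Bdh1 encodes the mitochondrial enzyme that interconverts acetoacetate and beta-hydroxybutyrate, and Acadm the dehydrogenase that starts a round of oxidation on medium-chain fatty acids. This made 2 of 31 genes called, both lower, against a background of 0.257% of 12431 genes called in either direction and 0.169% called lower (limma, Benjamini-Hochberg adjusted p under 0.05 over all genes tested). After scaling the same 2 genes were called, against 0.499% of all genes. Fold changes here and below compare log2(FPKM + 1) values.

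Bdh1 (chr16:31422280-31458901) measured 13.0, 28.9, 16.1, 21.1 and 12.9 FPKM in i4F p53 KO kidneys, 44.6, 43.1, 50.2, 49.8 and 59.7 FPKM in i4F Ink4a/Arf KO kidneys, and 36.4, 52.9, 56.8, 58.2 and 66.7 FPKM in i4F kidneys. Every p53 KO value lay below every value of both other groups, which overlapped each other. The means were 18.4 ± 6.72 FPKM in p53 KO and 54.2 ± 11.2 FPKM in i4F (SD, n = 5 each). Their log2 fold change was -1.54 (SE 0.20, limma adjusted p = 0.00519), and -1.58 after scaling (limma adjusted p = 0.00536). This call held in each of the alternatives tried.

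Acadm (chr3:153922357-153944632) measured 152.4, 347.4, 227.2, 264.2 and 173.5 FPKM in i4F p53 KO kidneys, 532, 393.3, 450.0, 459.1 and 526.4 FPKM in i4F Ink4a/Arf KO kidneys, and 377.5, 482.4, 558.2, 449.3 and 590.1 FPKM in i4F kidneys. Again no p53 KO value reached those of the other groups. The log2 fold change against i4F was -1.12 (SE 0.20, limma adjusted p = 0.0270), and -1.15 after scaling (adjusted p = 0.0358). On deposited values the limma call was lost without p53 KO replicate 1, 3 or 4 (adjusted p = 0.0836, 0.0637 and 0.0690) and without i4F replicate 2, 3, 4 or 5 (0.0860, 0.0959, 0.0594 and 0.104), with log2 fold changes between -1.18 and -0.98. After scaling it was lost without the same libraries and without i4F Ink4a/Arf KO replicate 5 (limma adjusted p = 0.0535). The call was also lost with no filter (limma adjusted p = 0.0566 as deposited and 0.0590 scaled) and when the third group was left out of the fit (0.114 as deposited and 0.113 scaled). Replicate number as a block ended the call on both scales too. The count of genes called in this comparison fell to 1, Bdh1, each time. Without p53 KO replicate 2 it was 3 on both scales, since Oxct1 was then called as well.

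The other ketone body enzymes also had negative fold changes, which did not pass. Oxct1 measured 155.5, 316.7, 255.3, 221.2 and 140.0 FPKM in p53 KO kidneys, against 372.1, 357.8, 351.7, 326.2 and 380.3 FPKM in i4F kidneys. The groups did not overlap on deposited values, yet the fold change of -0.78 (SE 0.18) missed the threshold (limma adjusted p = 0.0829). Acat1, a mitochondrial thiolase that acts in ketone body and isoleucine breakdown, had a log2 fold change of -0.62 (95% interval -1.30 to 0.06; limma adjusted p = 0.423).

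Ehhadh, the peroxisomal bifunctional enzyme that PPAR alpha is known to induce, measured 59.3, 149.1, 172.2, 124.7 and 80.1 FPKM in p53 KO kidneys, against 254.1, 251.7, 275.8, 145.4 and 200.8 FPKM in i4F kidneys. The groups overlapped through i4F replicate 4, and the log2 fold change of -1.01 (SE 0.26) was not called (limma adjusted p = 0.105). Hsd17b4, the other peroxisomal bifunctional enzyme, averaged 74.8 FPKM in p53 KO and 75.8 FPKM in i4F, with an interval of -0.18 to 0.14 for the log2 fold change. Acaa1b had a log2 fold change of -0.67 (interval -1.17 to -0.17, limma adjusted p = 0.227) and its copy Acaa1a one of -0.02 (interval -0.33 to 0.29). Cat had -0.50 (limma adjusted p = 0.195), and Pex11a, a membrane protein of peroxisome division, -0.16 (adjusted p = 0.619).

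**Figure D2:**
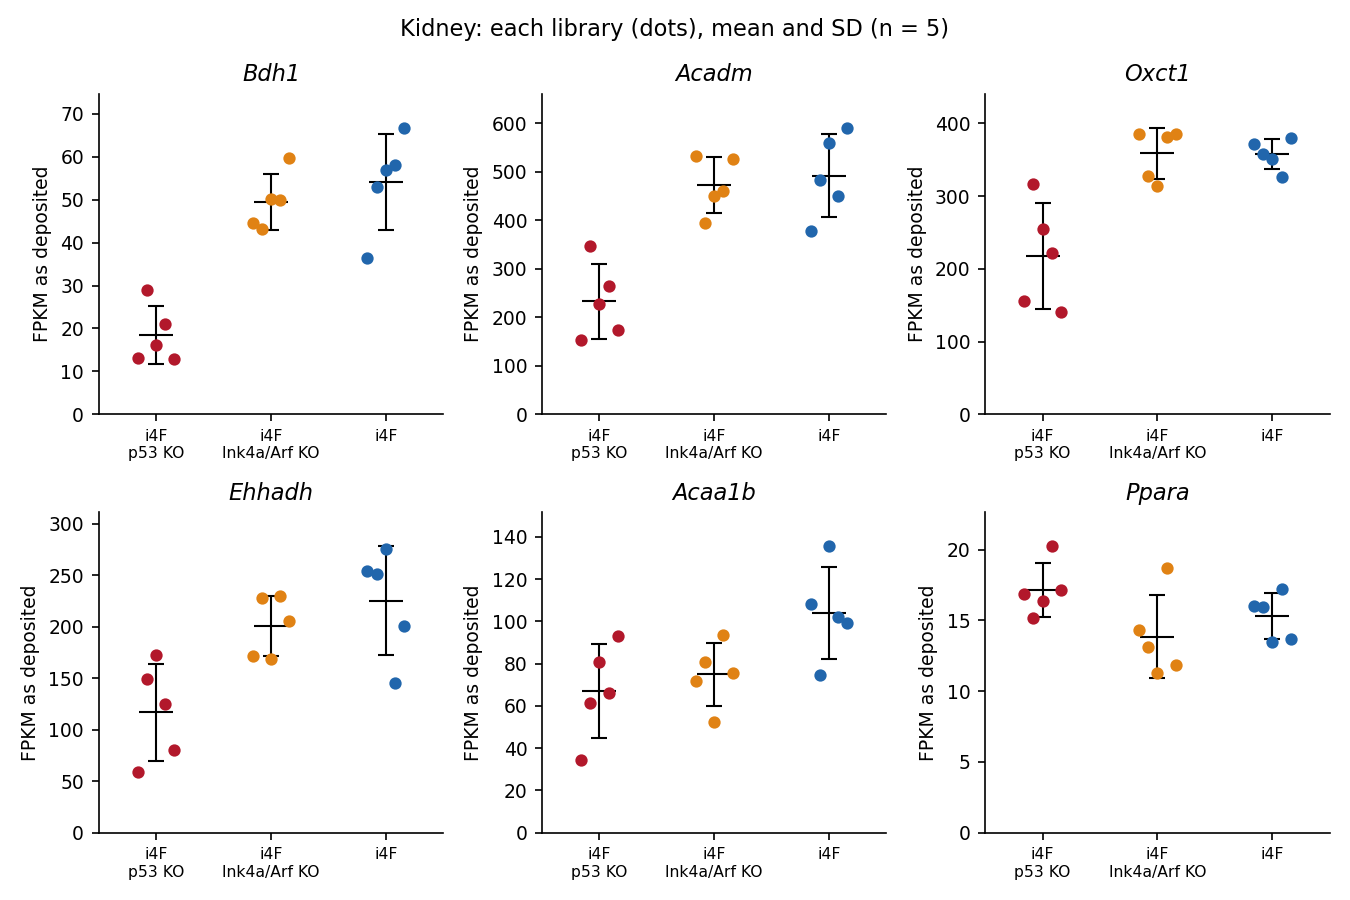
Bdh1, Acadm, Oxct1, Ehhadh, Acaa1b and Ppara in the 15 kidney libraries, in FPKM as deposited, with the mean and SD of each group of 5. For Bdh1 and Acadm all i4F p53 KO points lie below those of i4F Ink4a/Arf KO and i4F; for Ehhadh and Acaa1b the groups overlap, and for Ppara p53 KO is not lower.

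Among the mitochondrial dehydrogenases, Acadl (long-chain) had a log2 fold change of -0.37 in p53 KO (limma adjusted p = 0.148), while Acads (short-chain) had -0.42 and Acadvl (very-long-chain) -0.20. In the carnitine shuttle, Cpt1a, which commits long-chain acyl groups to entry, had -0.16 (interval -0.46 to 0.15, limma adjusted p = 0.672). Cpt2, which returns them to CoA inside mitochondria, had -0.45, the translocase Slc25a20 -0.21, and Crat, which handles short acyl groups, -0.20. Both subunits of the trifunctional protein were close to each other, with -0.24 for Hadha and -0.32 for Hadhb; Hadh, the dehydrogenase for shorter chains, had -0.31 and the thiolase Acaa2 -0.46. The enzymes that prepare unsaturated fatty acids for oxidation ranged from -0.45 (Decr1) to -0.02 (Eci1), with Ech1 at -0.34, Decr2 at -0.19 and Eci2 at -0.11. The subunits of electron transfer flavoprotein had -0.38 (Etfa) and -0.31 (Etfb), and its membrane oxidoreductase Etfdh had -0.38. None of these 19 fold changes passed the test.

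The direction was shared by nearly all of them. The log2 fold change was below 0 for 30 of the 31 genes, with a median of -0.32, against 44.6% of all genes and a median of 0.03. After scaling the same count was 30, against 50.4%, and the medians were -0.35 and 0. An unadjusted limma p under 0.05 was reached by 12 of the 31 genes on deposited values (13.2% of all genes) and by 13 after scaling (14.4%). Groups did not overlap for 6 genes, all lower in p53 KO: Acadm, Hadhb, Decr1, Etfa, Bdh1 and Oxct1 (1.65% of all genes were non-overlapping and lower). After scaling these were 3, Acadm, Hadhb and Bdh1 (1.38%). The exception in direction was Ppara, which averaged 17.1 ± 1.89 FPKM in p53 KO and 15.3 ± 1.63 FPKM in i4F (0.16 on the log2 scale, interval -0.11 to 0.42; limma adjusted p = 0.619). Ppargc1a measured 9.26 ± 1.01 FPKM in p53 KO and 10.5 ± 2.68 FPKM in i4F (-0.14, adjusted p = 0.739). In whole tissue, fewer cells of a type and less RNA per cell cannot be told apart.

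The p53 KO kidneys were not alike. The median of the 31 genes, as a log2 distance from the i4F mean, was -0.57, -0.24, -0.18, -0.20 and -0.27 in p53 KO replicates 1 to 5, and 0.05, -0.01, 0.20, -0.19 and -0.08 in i4F. After scaling the p53 KO values were -0.79, -0.27, -0.07, -0.32 and -0.18. Replicate 1 of p53 KO was the lowest of all 15 kidneys for 18 genes, 26 after scaling, and i4F replicate 3 the highest for 17, 22 after scaling. Together the 31 genes made up 0.495 to 0.735% of all FPKM in p53 KO, 0.708 to 0.893% with Ink4a/Arf deleted and 0.794 to 0.892% in i4F, so p53 KO and i4F did not overlap.

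Markers of other cell types and of injury were read beside this comparison, and those of neutrophils were called. Of 10 proximal tubule markers 8 had a negative fold change and none was called; without the androgen-driven Kap, the other 9 summed to 1730, 4093, 4604, 2536 and 2960 FPKM in p53 KO and to 4009 to 4809 FPKM in i4F. Of 6 markers of the loop of Henle and distal nephron 4 had a negative fold change and none was called, with sums of 904.4 to 2229 FPKM in p53 KO and 1778 to 3305 FPKM in i4F. The 5 tubule injury markers summed to 876.4 to 11210 FPKM in p53 KO and 357.8 to 1811 FPKM in i4F, with none called. Most of that sum was Spp1, at 838.7 to 10200 FPKM in p53 KO. Havcr1 measured 422.4 FPKM in p53 KO replicate 1 and 0.791 to 19.9 FPKM in the other p53 KO kidneys. Neutrophil markers summed to 57.4 to 167.6 FPKM in p53 KO and 12.4 to 22.8 FPKM in i4F, and all 3 tested were higher in p53 KO. Of all genes, 0.257% were called in either direction on deposited values and 0.499% after scaling. Adipocyte markers summed to 245.8 FPKM in p53 KO replicate 2 and 0.263 to 2.31 FPKM in the other p53 KO kidneys. In i4F they summed to 1.26 to 70.15 FPKM. That p53 KO replicate also held the highest p53 KO values of Bdh1, Acadm and Oxct1. Macrophage markers summed to 74.7 to 210.2 FPKM in p53 KO and 74.5 to 139.9 FPKM in i4F. Fibroblast sums were 30.6 to 160.5 and 38.7 to 119.0 FPKM. No gene of these lists was at 0 in all 5 libraries of either group, and the part of these cell types in the result was not tested. Acinar markers were also present in kidney, with Clps above 100 FPKM in p53 KO replicates 2, 3 and 4 and i4F replicate 5. Without these 4 libraries p53 KO kept 2 kidneys, replicates 1 and 5. These held the 2 lowest p53 KO values of Bdh1, Acadm, Oxct1 and Ehhadh. The i4F kidney left out, replicate 5, held the highest i4F values of Bdh1 and Acadm. The part of this choice of kidneys in the larger changes of that fit was not tested. Bdh1 had a log2 fold change of -1.87 there (limma adjusted p = 0.00274) and Acadm one of -1.50 (adjusted p = 0.00615). In that fit 5 genes were called lower, Acadm, Etfdh, Ehhadh, Bdh1 and Oxct1, with 2.22% of all genes called. With Xist as a covariate for sex 7 were called lower, Acadl, Acadm, Decr1, Etfa, Ehhadh, Acat1 and Bdh1, with 1.96% of all genes called.

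Against the i4F Ink4a/Arf KO kidneys, the same p53 KO libraries again gave 2 called genes of 31, both lower, with 0.265% of all genes called, and 0.539% after scaling. Bdh1 averaged 18.4 ± 6.72 FPKM in p53 KO and 49.5 ± 6.53 FPKM in i4F Ink4a/Arf KO (-1.43 on the log2 scale, limma adjusted p = 0.00978), a call that was lost on deposited values when i4F was left out of the fit (limma adjusted p = 0.0533). Acadm averaged 233 ± 77.7 FPKM in p53 KO and 472.2 ± 57.9 FPKM in i4F Ink4a/Arf KO (-1.07, limma adjusted p = 0.0407). This Acadm call was lost in 15 of the 22 alternatives, among them leaving out p53 KO replicate 1, 3, 4 or 5, any i4F Ink4a/Arf KO replicate, or i4F replicate 2, 3 or 4 (adjusted p between 0.0512 and 0.109). The median over the 31 genes was -0.17, against 0.03 over all genes, and 25 were below 0, against 44.5% of all genes. On deposited values Acaa1a, Eci1, Eci2, Decr2, Hsd17b4 and Ppara had positive fold changes here, from 0.03 to 0.30, none called.

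Between i4F Ink4a/Arf KO and i4F no member was called in either tissue. In kidney limma called 0 of 12431 genes (0% of the background), with 398 genes (3.2%) and 1 member at an unadjusted p under 0.05. That member was Decr2, the peroxisomal dienoyl-CoA reductase, at 26.5 FPKM with Ink4a/Arf deleted and 32.2 FPKM in i4F (-0.27 on the log2 scale). The median over the 31 genes was -0.14, with 27 below 0, against 51% of all genes. Bdh1 had a log2 fold change of -0.11 with an interval of -0.55 to 0.32, and Acadm one of -0.05 with an interval of -0.47 to 0.37. In pancreas limma called 0 of 10781 genes (0%), with 36 genes (0.334%) at an unadjusted p under 0.05 on deposited values and 515 (4.78%) after scaling. Of the members Hadh was among the 36, and Cpt1a and Decr1 among the 515, each lower in mean in i4F Ink4a/Arf KO. The median over the members was -0.18 on deposited values and -0.08 after scaling, against -0.07 and 0.02 over all genes.

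In the pancreas 28 of the 31 genes passed the filter, which asked for 1 FPKM or more in 5 or more libraries; Acaa1b, Ppara and Ppargc1a stayed below it in every library. Bdh1 passed only through the group labelled p53 KO, with 5 libraries at the minimum there and 2 in each other group, so its deposited call and its interaction below are values and no result. Relative to the median gene, most members were lower in pancreata labelled p53 KO than in i4F pancreata, while Acadl and Slc25a20 were higher. Of 28 genes 20 were called after scaling, 2 higher and 18 lower, against a background of 66% of 10781 genes called, 34.9% higher and 31.2% lower (limma). On deposited values the direction of most turned round: 24 were called higher, Bdh1 among them, and 1 lower, against 93.4% of all genes called, 91.2% higher and 2.25% lower. The median over the members was -0.54 after scaling and 1.25 on deposited values, and over all genes 0.03 and 1.58. The members' median lay below that of all genes on both scales, with 7 of 28 members above the median of all genes as deposited and 4 after scaling. The sign of most single changes depends on the scale.

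**Figure D3:**
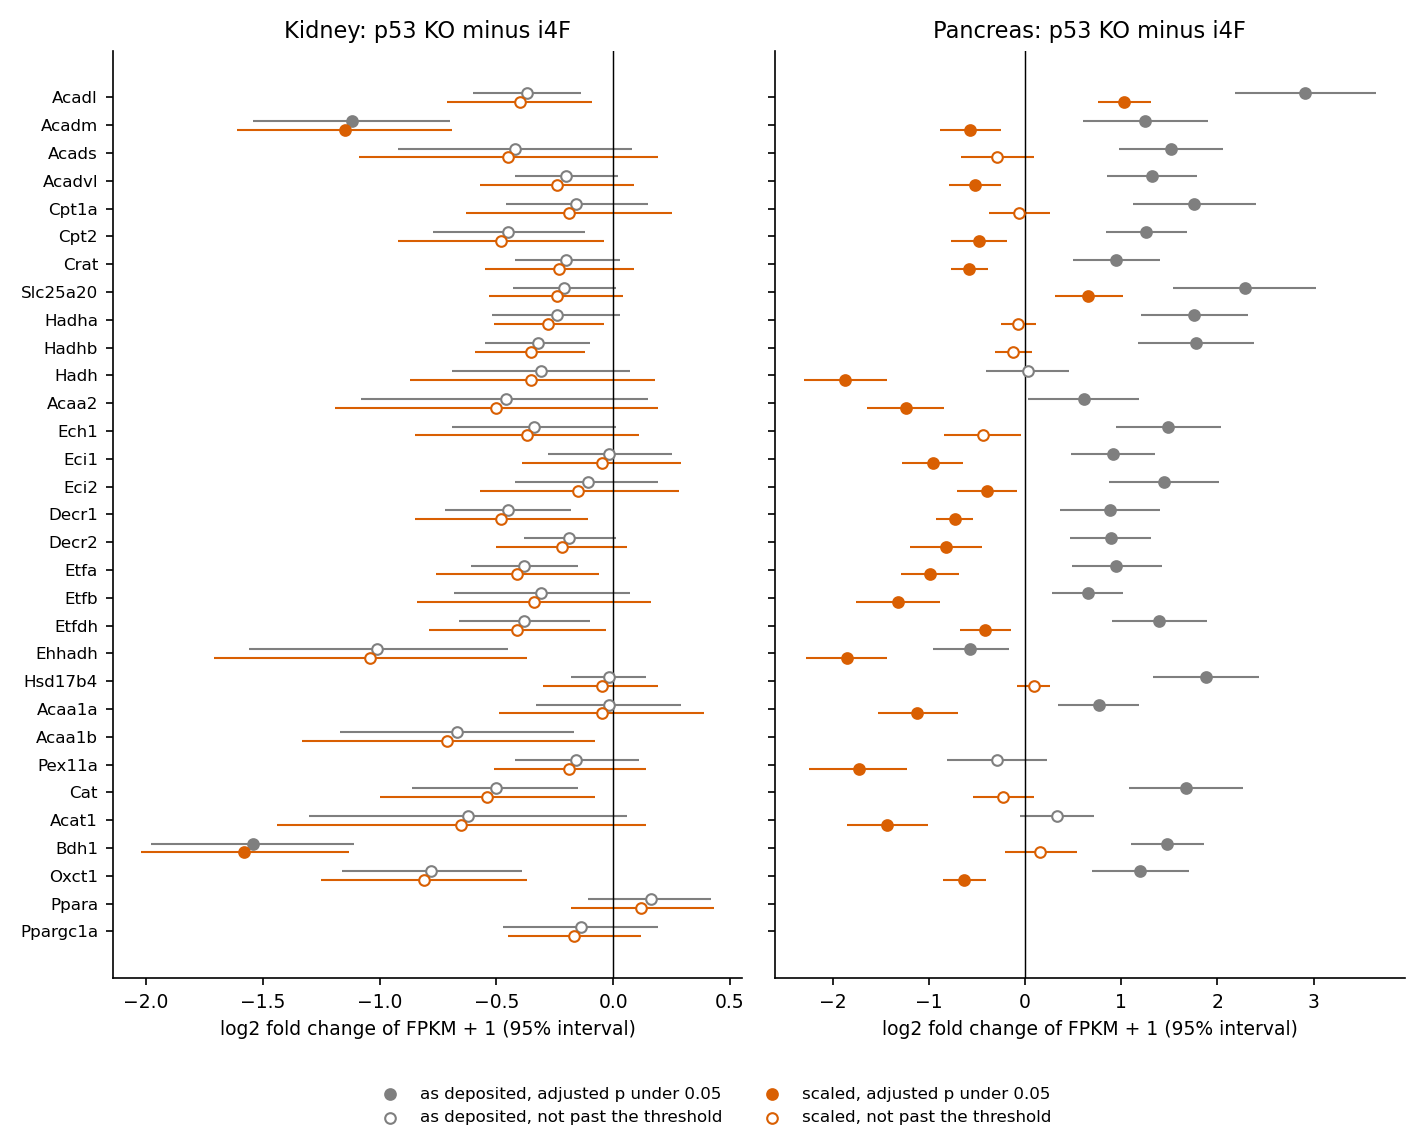
Log2 fold changes of p53 KO over i4F in kidney (left) and pancreas (right) with 95% intervals, on deposited values (grey) and after scaling (orange); filled points have a limma adjusted p under 0.05. Both scales nearly coincide in kidney, where only Acadm and Bdh1 are filled. In pancreas most grey points lie above 0 and most orange ones below it, Acadl and Slc25a20 lie above 0 and Ehhadh below 0 on both, and the 3 genes under the filter have no point.

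Acadl (chr1:66830839-66863277), the long-chain acyl-CoA dehydrogenase, was higher on both scales. It measured 68.7, 56.2, 34.4, 15.9 and 67.2 FPKM in pancreata labelled p53 KO, against 3.47, 2.96, 3.80, 8.59 and 7.18 FPKM in i4F pancreata. Scaled, the values were 17.5, 16.9, 16.4, 12.2 and 18.0 in pancreata labelled p53 KO and 7.30, 6.41, 5.77, 8.56 and 9.03 in i4F, with no overlap on either scale. The log2 fold change was 2.91 on deposited values (SE 0.35, limma adjusted p = 1.26e-06) and 1.03 after scaling (SE 0.13, limma adjusted p = 9.74e-06).

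Slc25a20, the carnitine-acylcarnitine translocase of the inner mitochondrial membrane, measured 18.0, 14.98, 7.93, 3.44 and 21.03 FPKM in pancreata labelled p53 KO, against 1.00, 1.18, 0.914, 3.01 and 1.88 FPKM in i4F. The log2 fold change was 2.29 on deposited values and 0.66 after scaling (SE 0.17, limma adjusted p = 0.00281), where replicate 4 of the labelled p53 KO group fell within the i4F range.

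Ehhadh was lower on both scales and was the only member called lower on deposited values. It measured 2.62, 2.00, 2.202, 2.57 and 1.85 FPKM in pancreata labelled p53 KO, against 3.75, 2.92, 3.44, 3.86 and 5.30 FPKM in i4F (log2 fold change -0.57, SE 0.19, limma adjusted p = 0.00812). Scaled, it averaged 0.956 ± 0.603 in the labelled p53 KO group and 5.99 ± 1.53 in i4F (-1.85, SE 0.20, adjusted p = 2.35e-06), without overlap. Hsd17b4, in contrast, had a scaled fold change of 0.09 (interval -0.08 to 0.26) and a deposited one of 1.88.

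Hadh, the short-chain 3-hydroxyacyl-CoA dehydrogenase, which is also abundant in islet beta cells, was not called on deposited values, with 20.6 ± 4.78 FPKM in pancreata labelled p53 KO and 19.9 ± 3.04 FPKM in i4F (log2 fold change 0.03, interval -0.40 to 0.46, limma adjusted p = 0.874). Scaled, it measured 6.60, 6.56, 8.46, 10.7 and 6.33 in the labelled p53 KO group and 37.9, 40.4, 25.0, 22.4 and 29.6 in i4F, without overlap (-1.87 on the log2 scale, SE 0.20, limma adjusted p = 2.83e-06). The 5 islet markers summed to 49.98 to 2034 FPKM in the labelled p53 KO group and 257.1 to 3510 FPKM in i4F; their part in the Hadh values was not tested.

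**Figure D4:**
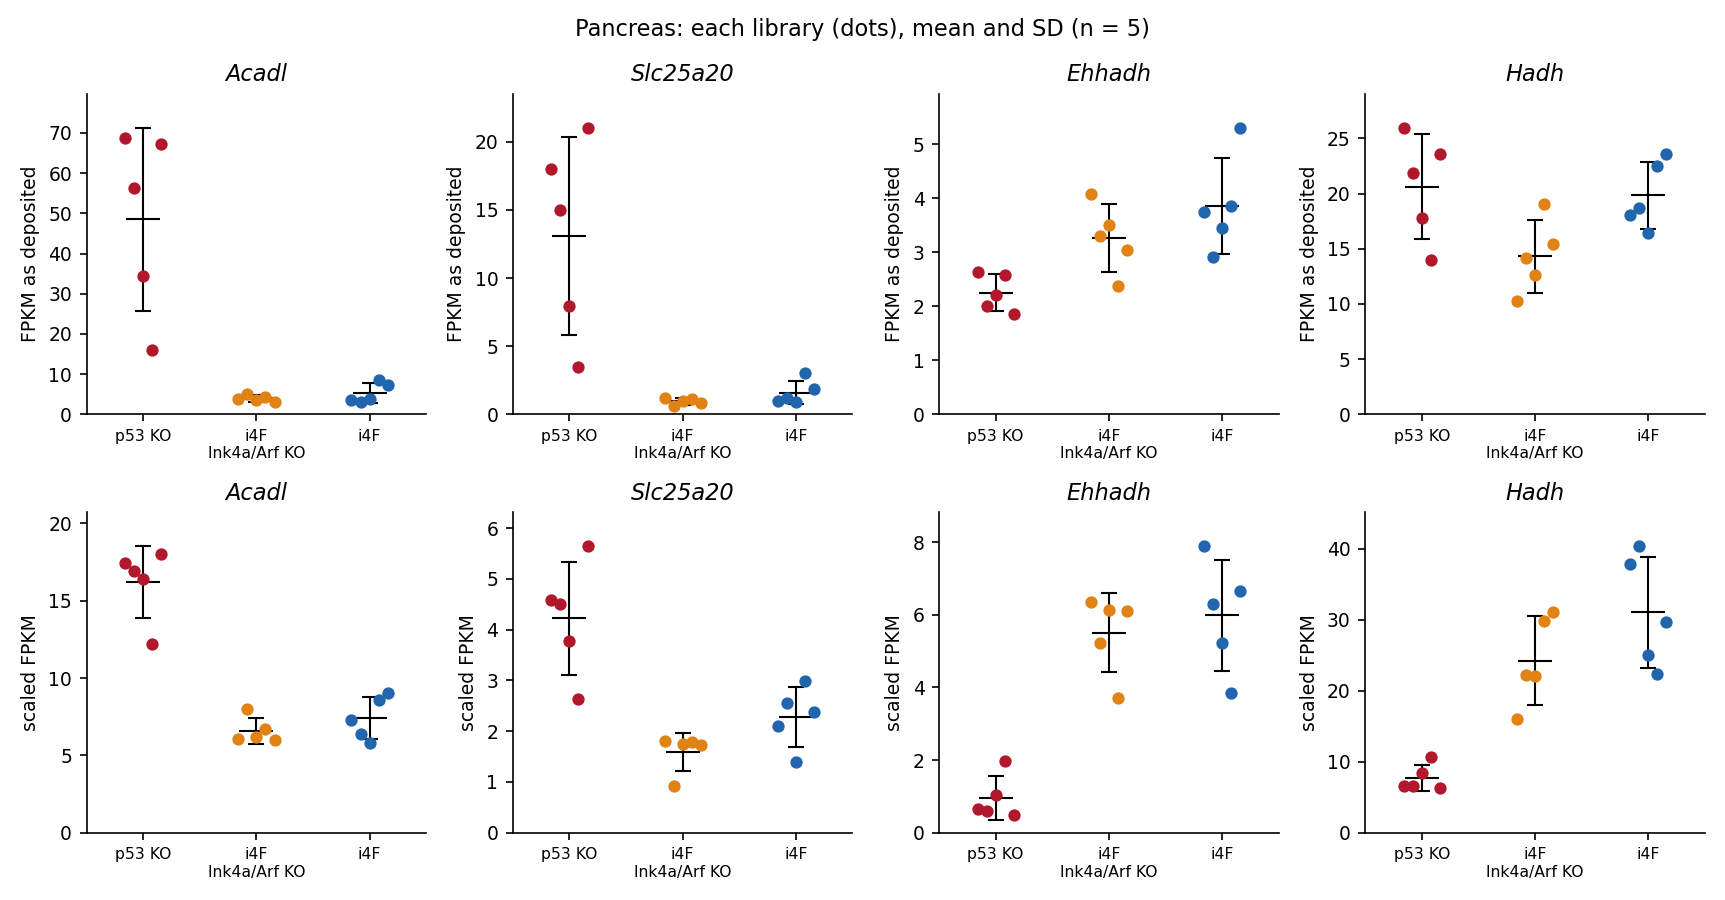
Acadl, Slc25a20, Ehhadh and Hadh in the 15 pancreas libraries, in FPKM as deposited (top) and scaled (bottom), with the mean and SD of each group of 5. The group labelled p53 KO is highest for Acadl and Slc25a20 and lowest for Ehhadh in both rows, while Hadh overlaps between groups as deposited and separates only after scaling.

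By role, after scaling, the dehydrogenases Acadm (-0.57) and Acadvl (-0.52) were lower beside the higher Acadl, and Acads was not called. Cpt2 (-0.48) and Crat (-0.58) were lower, and Cpt1a had -0.06 (interval -0.37 to 0.26, limma adjusted p = 0.737). Of the trifunctional protein and later steps, Hadh and the thiolase Acaa2 (-1.24) were lower, while Hadha (-0.07) and Hadhb (-0.12) were not called. Of the auxiliary enzymes 4 of 5 were lower: Eci1 (-0.96), Decr2 (-0.82), Decr1 (-0.73) and Eci2 (-0.39), while Ech1 missed the threshold (-0.44, limma adjusted p = 0.0526). The Eci2 call was lost without replicate 2, 3 or 5 of the labelled p53 KO group (limma adjusted p = 0.0682, 0.0508 and 0.0570) and without i4F replicate 1 (-0.24, adjusted p = 0.0628).

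All 3 electron transfer genes were lower after scaling, Etfb by -1.32, Etfa by -0.99 and Etfdh by -0.42. Among peroxisomal genes Pex11a (-1.73) and Acaa1a (-1.12) were lower beside Ehhadh, and Cat was not called (-0.23, limma adjusted p = 0.184). Of the ketone body enzymes Acat1 (-1.43) and Oxct1 (-0.63) were lower, and Bdh1 had 0.16 (interval -0.21 to 0.54). On deposited values these changes were 0.65, 0.95 and 1.39 for Etfb, Etfa and Etfdh, 0.77 for Acaa1a, 1.67 for Cat and 1.20 for Oxct1, all called higher, with -0.29 for Pex11a and 0.33 for Acat1 not called. Acaa2, at 0.61, was called on deposited values (limma adjusted p = 0.0449) but not without replicate 1, 2 or 5 of the labelled p53 KO group, i4F Ink4a/Arf KO replicate 3, 4 or 5, or i4F replicate 1, 2, 3 or 5 (adjusted p between 0.0526 and 0.143).

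The 3 genes under the filter were not tested. Ppara measured 0.172, 0.142, 0.234, 0.347 and 0.114 FPKM in pancreata labelled p53 KO and 0.454, 0.417, 0.500, 0.685 and 0.776 FPKM in i4F. Ppargc1a ranged from 0.0837 to 0.167 FPKM in the labelled p53 KO group and from 0.128 to 0.312 FPKM in i4F. Acaa1b was at or under 0.185 FPKM in all 15 libraries.

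Other cell types differed strongly in the same pancreata. Macrophage markers (6 of 6 higher on both scales, against 91.2% of all genes as deposited and 34.9% after scaling) summed to 465.7 to 2608 FPKM in the labelled p53 KO group and 31.9 to 362.6 FPKM in i4F. Fibroblast markers summed to 490.6 to 7122 FPKM in the labelled p53 KO group and 49.6 to 227.5 FPKM in i4F, with 5 of 5 higher on deposited values and 4 after scaling. Acinar markers summed to 4611 to 204500 FPKM in the labelled p53 KO group and 199500 to 353000 FPKM in i4F, with 5 of 8 tested lower on both scales, against 2.25% and 31.2% of all genes. The lowest i4F sum is that of replicate 5, with Cpa1 and Prss2 at 0. Cpa1, Prss2 and Cela1 are among the 8, and 1 i4F value at 0 widens the spread of each. Their other i4F values lay above every labelled p53 KO value on both scales. The part of these cell types in the members' values was not tested. Against i4F Ink4a/Arf KO, the same libraries labelled p53 KO gave 19 called members after scaling, Acadl (1.17) and Slc25a20 (0.99) higher and 17 lower, with 67.7% of all genes called, 34.7% higher and 33% lower. On deposited values 26 were called, all higher, with 93.7% of all genes called, 91.7% higher and 1.97% lower.

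An interaction term over the 30 libraries tested whether the p53 KO change differed by tissue, with the label p53 KO taken for both. After scaling the difference, kidney change minus pancreas change, passed for 10 of 28 members, against 47.1% of 10143 genes (limma). It was negative for Acadl (-1.44, SE 0.20, limma adjusted p = 3.62e-06) and Slc25a20 (-0.91, SE 0.22, adjusted p = 0.00142). It was positive for Pex11a (1.55), Hadh (1.52), Acaa1a (1.06), Etfb (0.98), Eci1 (0.91), Decr2 (0.60) and Etfa (0.58). The tenth, Bdh1, had -1.74 (SE 0.28), and it entered the pancreas fit only through the libraries labelled p53 KO. Acadm (-0.59, adjusted p = 0.0707) and Ehhadh (0.81, adjusted p = 0.0814) did not pass. On deposited values 25 of 28 passed, all negative, against 91.9% of all genes. For Ink4a/Arf no member and no gene passed on either scale (0%). The tissues also differ in whether the label names i4F, and that and the tissue cannot be told apart.

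Ratios of 2 members within a library do not depend on the scaling. The pairs were chosen after their values were seen, so they are given with no test. Ehhadh over Hsd17b4, the L- and the D-specific peroxisomal bifunctional enzymes, was 0.795, 2.06, 2.45, 1.48 and 1.11 in i4F p53 KO kidneys, 2.49 to 3.25 in those with Ink4a/Arf deleted and 3.42, 3.38, 3.24, 1.96 and 2.84 in i4F kidneys. In pancreas it was 0.0775 to 0.313 in the labelled p53 KO group, 0.523 to 1.03 with Ink4a/Arf deleted and 0.612 to 1.27 in i4F. Its median was thus lowest in p53 KO in both tissues, with an overlap with i4F in kidney and none in pancreas.

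Acadl over Acadm was 2.72 to 3.81 in pancreata labelled p53 KO and 0.566 to 1.62 in i4F pancreata, without overlap, and 0.331 to 0.732 in p53 KO and 0.227 to 0.390 in i4F kidneys, with overlap. Bdh1 over Oxct1 was 0.0632 to 0.0953 in p53 KO kidneys, 0.116 to 0.160 with Ink4a/Arf deleted and 0.0978 to 0.178 in i4F kidneys, so all 5 p53 KO kidneys lay below both other groups. In pancreas that ratio overlapped, with 0.174 to 0.377 in the labelled p53 KO group and 0.112 to 0.250 in i4F. Hadha over Hadhb, the pair with the shared start region, spanned 0.351 to 0.441 over all 15 kidneys and 0.552 to 0.731 over all 15 pancreata, and its groups overlapped in both tissues. Of 3 further pairs computed, Acadm over Hadha was 3.75 to 7.51 in p53 KO kidneys, 8.19 to 11.3 with Ink4a/Arf deleted and 7.64 to 11.3 in i4F kidneys, without overlap. Acaa1b over Acaa1a was 0.880 to 1.51 in p53 KO kidneys, 1.58 to 2.05 with Ink4a/Arf deleted and 1.70 to 2.40 in i4F kidneys, also without overlap, and rests on reads of near-identical copies. Etfa over Etfb overlapped between the groups in kidney, with 0.350 to 0.715 in p53 KO and 0.485 to 0.715 in i4F.

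**Figure D5:**
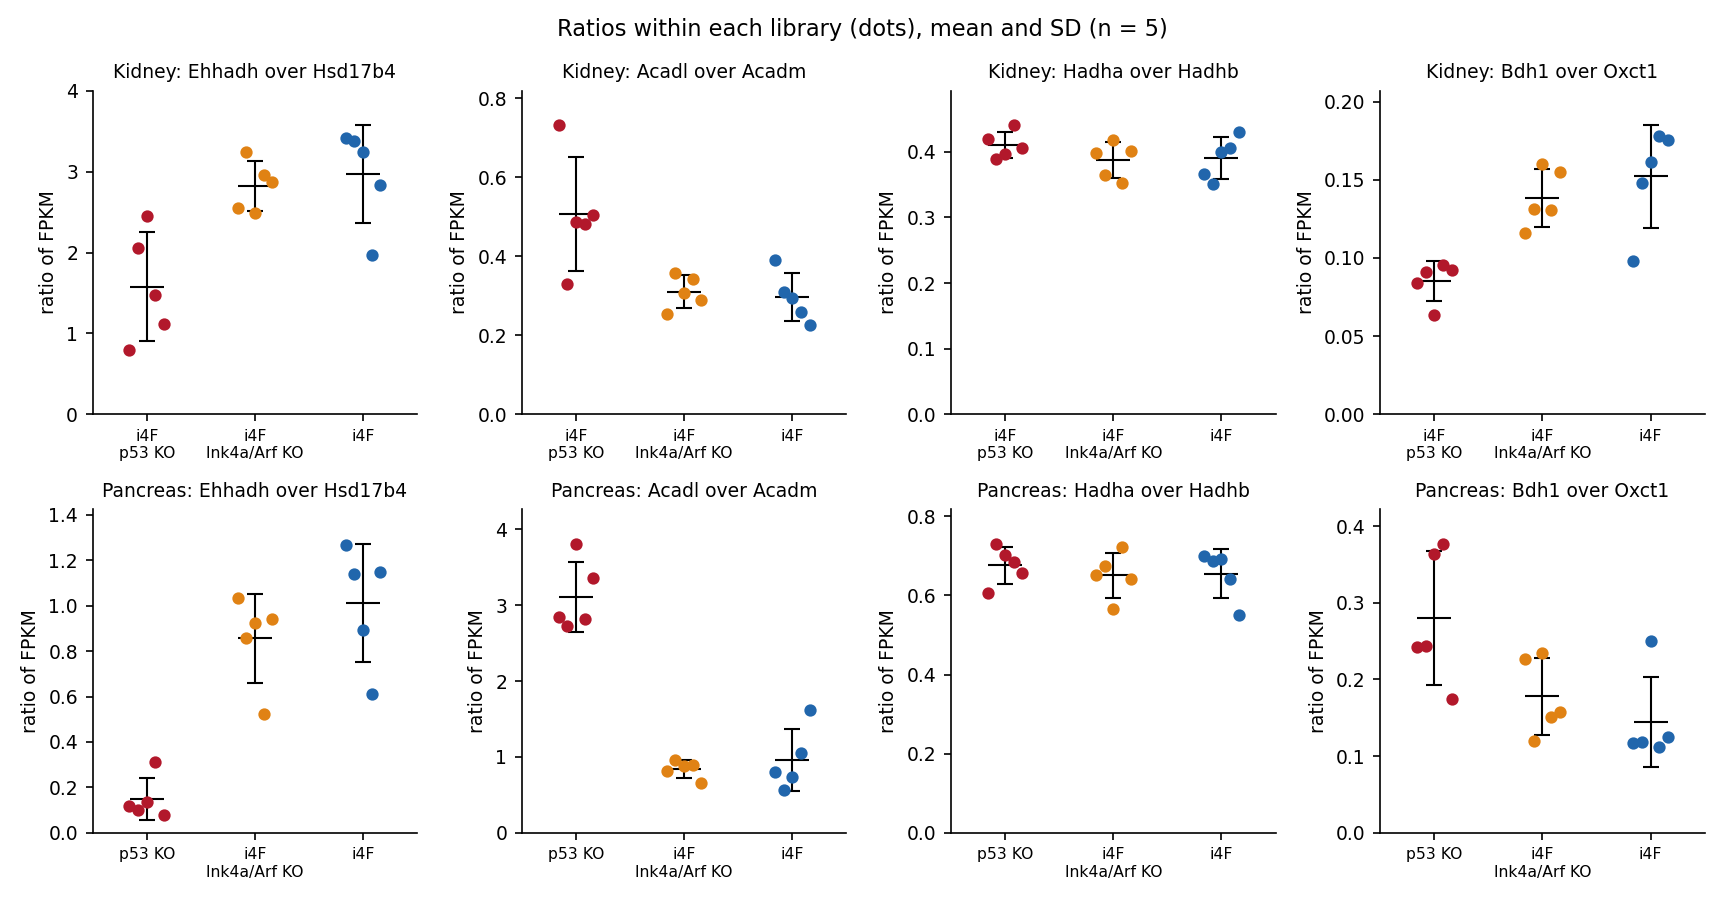
Ratios of FPKM within each library for Ehhadh over Hsd17b4, Acadl over Acadm, Hadha over Hadhb and Bdh1 over Oxct1, in kidney (top) and pancreas (bottom), with the mean and SD of each group of 5. Ehhadh over Hsd17b4 has its lowest median in p53 KO in both tissues, Acadl over Acadm separates only in pancreas, Bdh1 over Oxct1 only in kidney, and the groups overlap for Hadha over Hadhb.

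Other genes of the pathway, from 7 lists with 153 of 154 genes matched, were read beside the members. In i4F p53 KO against i4F kidneys no gene of these lists was called on deposited values. The fold change was below 0 for 19 of 20 genes of a mixed mitochondrial list (median -0.35). That list holds other beta-oxidation enzymes and enzymes of propionyl-CoA and branched-chain amino acid breakdown. The fold change was also below 0 for 17 of 21 genes of fatty acid uptake and activation (-0.23) and 35 of 41 other peroxisomal genes (-0.19). It was below 0 for 6 of 18 fatty acid synthesis genes (median 0.11). After scaling 1 gene of all these lists was called, where 0.499% of all genes were. It was Pdk4, a kinase that restrains glucose oxidation and a PPAR alpha target. Pdk4 averaged 3.29 scaled FPKM in p53 KO and 7.48 in i4F (-0.96 on the log2 scale, limma adjusted p = 0.0491).

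In pancreata labelled p53 KO, after scaling, 15 of 17 genes of the mixed mitochondrial list were lower than in i4F and 1 higher. Of all genes 31.2% were lower and 34.9% higher. Among the 15 were Pcca (-1.96) and Mut (-1.39), which carry propionyl-CoA into the citric acid cycle, and Hibch (-2.02) of valine breakdown. Of 32 other peroxisomal genes 23 were lower and 1 higher, with Pecr (-2.12), a trans-2-enoyl-CoA reductase, and Scp2 (-0.66), a sterol carrier and thiolase, among them. Of 14 uptake and activation genes 9 were lower and 4 higher. Acsl1 (-1.27), which activates long-chain fatty acids, and Slc27a1 (-1.19), a fatty acid transporter, were lower. On deposited values 5 of the 17, 27 of the 32 and 9 of the 14 were called higher and 1 of each lower, with 91.2% of all genes called higher. Slc16a1, the monocarboxylate transporter that also carries ketone bodies, was higher after scaling, at 5.72 in the labelled p53 KO group and 1.25 in i4F (1.60, limma adjusted p = 7.79e-06). Plin2, a lipid droplet protein, was higher too, at 26.3 scaled FPKM in the labelled p53 KO group and 3.39 in i4F (2.71, limma adjusted p = 6.43e-07). Both were picked from their lists for a small p, where 34.9% of all genes were called higher. Counts for those lists are not given here, so these are values of single genes.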

How the data were processed

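RNA from kidney and pancreas was sequenced as stranded poly(A) libraries with RNA integrity numbers of 7.4 to 9.4 and over 24 M mapped reads per sample, per the labels' protocols. The authors deposited a table of FPKM for each tissue. Cufflinks 2.2.1, TopHat2 2.0.10, SAMtools 0.1.19, Bowtie 1.0.0, FastQC and build mm10 are named in the submitters' processing notes. A further scaling between libraries is not given in the sources used here. Counts were not used, so the depth behind a gene is unknown and no counting interval was computed. FPKM are relative to all reads of a library, so a few very abundant transcripts can shift all other values.

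Libraries were grouped by labelled tissue and genotype, 5 mice each. In R 4.3.3, limma 3.58.1 (eBayes with trend, two-sided) tested log2(FPKM + 1) on the 15 libraries of a tissue, for genes that reached 1 FPKM in 5 or more libraries, with Benjamini-Hochberg adjustment over all genes and a threshold of 0.05; the pseudocount understates changes of low genes. Scaled values were divided by each library's median ratio to the geometric mean. The interaction took all 30 libraries as independent. Named throughout were Bdh1, Ppara, Ppargc1a, Cpt1a, Acadm, Ehhadh, Acaa1a, Acaa1b and Cat, with every member called on deposited values in kidney or on scaled values in pancreas, and up to 3 called genes with the smallest p of each other list; all other members are given by role. The members and lists were chosen with earlier results of these data known. Alternatives were no filter, a filter of 5 FPKM, a pseudocount of 0.1, quantile normalization, replicate number as a block, Xist as a covariate, a fit of the 2 groups compared, leaving out kidneys above 100 FPKM of Clps, and leaving out each library. Simulated data for p53 KO against i4F were built from deposited values, with 200 genes changed. Of changes of log2 1, 85.5% (kidney) and 46.5% (pancreas) were recovered, and of log2 2, 93.5% and 95.5%. With 32 genes called, the cutoff in the real kidney fit was stricter, so these shares do not carry over to it. Recovery on scaled values was not simulated. Positions come from GENCODE M21 and promoters from RefSeq. Promoter and ratio figures used Python 3.11.15.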

Additional observations from a re-analysis of the deposited data

Results flagged for a closer look

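In 15 of 186 groups of 5 libraries (31 genes, 6 groups, deposited FPKM) 1 library lay far from the other 4 by Dixon's criterion, which chance alone meets in about 1 of 20 groups. Of these, 5 were i4F pancreas replicate 4, always high: Acadm at 8.19 FPKM (others 4.30 to 5.23), Acaa2 at 13.2 (8.02 to 8.63), Ech1 at 20.5 (9.09 to 11.6), Etfdh at 6.99 (4.12 to 4.94) and Cat at 13.6 (6.02 to 7.92). That library had the most genes at 1 FPKM or more of its group, 9852, and the largest scaling factor, 1.00. Its adipocyte markers summed to 249.0 FPKM (others 0.124 to 0.837) and its neutrophil markers to 218.7 FPKM (others 1.21 to 2.30), and their part in these values was not tested. In i4F Ink4a/Arf KO kidney replicate 1, the female of that group, Slc25a20 measured 27.7 FPKM (others 21.2 to 22.3), Hadha 65.0 (41.5 to 47.1) and Hadhb 162.9 (112.7 to 121.0). In i4F p53 KO kidney replicate 1, Acadvl measured 77.2 FPKM (others 102.4 to 112.5) and Ech1 169.3 (266.6 to 303.0). Hsd17b4 measured 85.2 FPKM in i4F kidney replicate 3 (others 70.8 to 74.4).

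In i4F Ink4a/Arf KO pancreas, Etfa measured 16.02 FPKM in replicate 3 (others 14.1 to 14.6), and replicate 1 held Pex11a at 5.68 (2.74 to 3.28) and Ppara at 0.764 (0.326 to 0.449). Ppargc1a measured 0.167 FPKM in replicate 1 of the pancreata labelled p53 KO (others 0.0837 to 0.104). The interaction test on scaled values passed for 10 of 28 members, against 47.1% of 10143 genes. That test took the label p53 KO for both tissues. The kidney change minus the pancreas change was -1.44 for Acadl, -0.91 for Slc25a20, 1.55 for Pex11a, 1.52 for Hadh, 1.06 for Acaa1a, 0.98 for Etfb, 0.91 for Eci1, 0.60 for Decr2 and 0.58 for Etfa. It was -1.74 for Bdh1, which passed the pancreas filter only through the libraries labelled p53 KO.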

How the results depend on the processing

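In kidney, the number of members called lower in p53 KO against i4F, 2 on deposited values, was 1 with no filter, 1 with replicate block, 1 with only the 2 groups compared, 7 with Xist and 5 without the libraries above 100 FPKM of Clps; leaving out 1 library gave 1 to 3. After scaling, also 2, these were 1, 1, 1, 8 and 4, and 1 to 3. Against i4F Ink4a/Arf KO, 2 on deposited values, they were 1, 1, 0, 5 and 6, and 1 to 3; after scaling 1, 1, 1, 5 and 4, and 1 to 3. Bdh1 was called against i4F in every alternative on both scales, and against i4F Ink4a/Arf KO in all but the deposited fit of only 2 groups (limma adjusted p = 0.0533). Acadm against i4F was lost in 10 of 22 alternatives on deposited values and 11 of 23 after scaling. Ehhadh against i4F was called with Xist (-1.20, limma adjusted p = 0.0413) and without the Clps libraries (-1.69, adjusted p = 0.0153). The latter fit kept only replicates 1 and 5 of p53 KO, the 2 lowest of that group for Ehhadh. Fewer samples enter the fits that leave libraries out; otherwise the cause was not tested. In pancreas each count stayed within 1.5 times its value. Deposited values in place of scaled ones moved the interaction count from 10 to 25, and the share of all genes from 47.1% to 91.9%. Within a tissue, at most 3 of 5 same-numbered pairs of any comparison had r over 0.1. For kidney p53 KO against i4F, r ranged from -0.0789 to 0.291 on deposited values. There 3 of 5 libraries correlated best with their own number, so this check does not settle whether the numbers pair libraries. Between tissues, libraries of the same genotype and number had a consensus correlation of 0.0117. No sign of a called value turned round within a scale.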
